A study of Mus musculus with 6 samples.

Results

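A group of 10 genes of positive selection in the germinal centre was followed in mouse germinal centre B cells with and without the membrane protein gene Basp1: Myc, Mycn, Max, Tfap4, Bhlhe40, Nfil3, Cd83, Cd86, Cd80 and Icosl. They were chosen by symbol, out of 23420 genes listed, for their part in selection by T cell help and not by their values here. The 3 KO libraries came from mice with floxed Basp1 alleles (BASP1 fl/fl hCD20TamCre+/-), and the 3 WT libraries from mice with unmodified ones (BASP1 +/+ hCD20TamCre+/-). Both groups carried the tamoxifen-activated Cre, whose CD20 promoter is that of B cells in general and is not restricted to germinal centres. Mice of both groups were immunized with NP-KLH and received 1 mg tamoxifen on day 5, day 7 and day 9, and the mRNA of sorted splenic germinal centre B cells was sequenced on day 10. The age and sex of the mice are not given in the sources used here, nor whether each library came from 1 mouse.

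In the light zone of a germinal centre, B cells take up antigen, show its peptides to follicular helper T cells and receive help through CD40 and cytokines. A small share of them then switch on MYC, a transcription factor that binds the E-box sequence CACGTG as a pair with MAX and drives cell growth, and return to the dark zone to divide. CD83 and CD86 mark light zone cells at the surface. CD80 and CD86 bind CD28 and CTLA-4 on the T cell, and ICOSL binds ICOS.

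RefSeq promoter windows (build GRCm38.p6, 250 bases before to 50 after the start site) were at hand for 5 of the 10 genes: Mycn, Max, Cd80, Icosl and Nfil3. The window of Max is shown because it holds the sequence that the MYC and MAX pair binds, and those of Icosl and Cd80 because these ligands of T cell receptors lay far apart in level. Capitals mark the E-box CACGTG, read on both strands. They are Max at chr12:76962199-76962498 (minus strand), Icosl at chr10:78069118-78069417 (plus strand) and Cd80 at chr16:38458683-38458982 (plus strand), each written 5′ to 3′ on the strand of its gene.
Max: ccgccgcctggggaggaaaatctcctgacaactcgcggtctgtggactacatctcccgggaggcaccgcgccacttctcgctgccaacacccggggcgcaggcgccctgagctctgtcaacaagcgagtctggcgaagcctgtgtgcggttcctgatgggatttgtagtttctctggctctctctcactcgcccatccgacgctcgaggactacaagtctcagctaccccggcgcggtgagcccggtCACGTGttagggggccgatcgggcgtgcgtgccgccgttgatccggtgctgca
Icosl: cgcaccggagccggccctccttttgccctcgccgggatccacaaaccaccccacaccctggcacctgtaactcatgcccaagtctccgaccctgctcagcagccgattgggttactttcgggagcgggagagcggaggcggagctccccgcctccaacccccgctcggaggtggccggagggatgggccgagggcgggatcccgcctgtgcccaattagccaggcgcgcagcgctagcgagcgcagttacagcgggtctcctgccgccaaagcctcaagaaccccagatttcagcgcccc
Cd80: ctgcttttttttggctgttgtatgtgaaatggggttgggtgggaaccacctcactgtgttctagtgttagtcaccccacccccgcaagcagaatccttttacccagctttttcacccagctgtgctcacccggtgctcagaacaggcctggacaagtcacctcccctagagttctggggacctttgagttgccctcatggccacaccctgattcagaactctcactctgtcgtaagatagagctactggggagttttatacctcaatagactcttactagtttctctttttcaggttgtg
The E-box of Max began 3 bases before the start site. Among all 32817 promoter windows, 7.15% held CACGTG, and none of the other 4 windows did. The D-box letters TTANGTAA, which NFIL3 binds, were searched on both strands too and are in 2.32% of all windows but in none of the 5, and the letters TGACGTCA, in 1.79% of all, are in none of the 5 either. These matches describe letters only, and no binding was measured. The GC content was 64.7% for Max, 68.0% for Icosl and 49.7% for Cd80.

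Each library lists log2 CPM (read counts scaled to a common library total) that the authors had already scaled, with linear sums between 997617 and 1000510 and between 10160 and 10173 genes at or above 1 CPM, so read depth per library is unknown. For every gene, KO and WT values with the same replicate number add up to the same total in all 3 numbers to within 0.001, so a gene holds a mean and 3 paired differences, and groups separate whenever all pairs go one way. Fold changes are KO minus WT differences of log2 CPM with the SD over the 3 pairs, tested with limma (replicate number as a block, Benjamini-Hochberg adjustment over the 10133 genes averaging 1 CPM or more). Basp1 itself was at 3.27, 2.86 and 3.23 log2 CPM in KO libraries 1 to 3, against 5.49, 5.90 and 5.53 in WT libraries 1 to 3. Its log2 fold change was -2.51 ± 0.45 (SD, n = 3 pairs; limma adjusted p = 3.3e-16). Since these are bulk libraries, fewer cells of a type and less RNA per cell cannot be told apart.

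Of the 10 genes, 8 had a mean of at least 1 CPM and entered the test, and Tfap4 and Mycn did not. None of the 8 rose or fell at 5% FDR by limma, where 0.266% of all genes tested were called in either direction. At an unadjusted p under 0.05 there was 1 of the 8, Bhlhe40, where 8.82% of all genes tested lay. The median log2 fold change of the 8 was 0.04, beside 0.004 over all genes tested, and 6 of the 8 were positive, beside 51.3% of all genes. The intervals of the differences below say what sizes the limma fit leaves possible. For most genes its variance comes more from other genes of like level than from the 3 pairs.

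**Figure D1:**
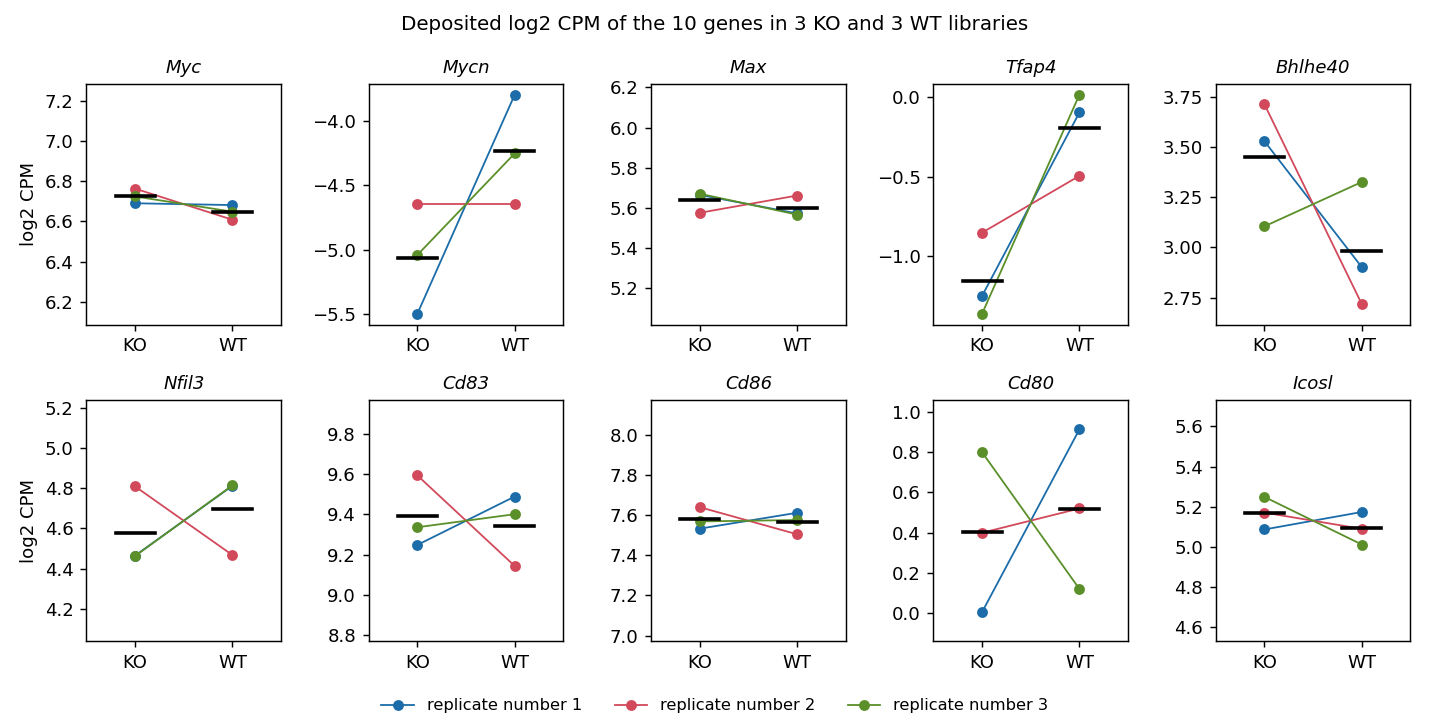
Deposited log2 CPM (y axis, each panel with its own range of at least 1.2) of the 10 genes in 3 KO and 3 WT libraries. Points are libraries, coloured lines join libraries with the same replicate number, and black bars are group means. Tfap4 was lower in every KO library than in every WT library (KO mean -1.15, WT mean -0.19), Myc differed by little, and for Nfil3 the lines of numbers 1 and 3 lie on each other.

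Myc, the growth regulator at the centre of the group, was expressed at nearly the same level in both genotypes. It was at 6.69, 6.76 and 6.72 log2 CPM in KO libraries 1 to 3, against 6.68, 6.61 and 6.65 in WT libraries 1 to 3. The KO libraries lay above the WT libraries without overlap, by 0.009 in pair 1, where 27.7% of all genes tested went one way in all 3 pairs and 15.2% were higher in KO in all of them. Across the pairs the log2 fold change was 0.08 ± 0.07 (SD, n = 3 pairs; limma adjusted p = 0.857), with a 95% interval from -0.08 to 0.24. The group means were 105.8 CPM in KO and 100.1 CPM in WT libraries. The gene lies on chromosome 15 (plus strand, 61985391 to 61990374 in GRCm38, GENCODE M21), and its longest annotated transcript has 3 exons.

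Max, the partner that MYC needs to bind DNA, was also even. It was at 5.67, 5.58 and 5.67 log2 CPM in KO libraries 1 to 3, against 5.57, 5.66 and 5.57 in WT libraries 1 to 3. Pairs 1 and 3 were higher in KO and pair 2 lower, and the groups overlapped. For Max the log2 fold change was 0.04 ± 0.11 (SD, n = 3 pairs; limma adjusted p = 0.954), with a 95% interval from -0.15 to 0.22. Max is on chromosome 12 (minus strand, 76937269 to 76962201).

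Mycn, a relative of Myc best known from the nervous system and early progenitors, was close to undetected. The KO libraries 1 to 3 listed -5.50, -4.65 and -5.04 log2 CPM, against -3.79, -4.65 and -4.25 in WT libraries 1 to 3, where -5.063 is the value that 8492 genes hold in all 6 libraries. All values were under 0.1 CPM on a linear scale, and pair 2 did not differ at all. The mean paired difference was -0.83 ± 0.85 (SD, n = 3 pairs), and its limma adjusted p was 0.885 when low values were not filtered.

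Tfap4 encodes AP4, an E-box factor that MYC induces and that keeps selected B cells dividing. Every KO library lay below every WT library, at a level too low for the main test. It was at -1.25, -0.85 and -1.36 log2 CPM in KO libraries 1 to 3, against -0.10, -0.49 and 0.02 in WT libraries 1 to 3. The groups did not overlap, and the paired differences were -1.15, -0.36 and -1.38. The means were 0.450 CPM in KO and 0.876 CPM in WT libraries, a difference of -0.96 ± 0.54 on the log2 scale (SD, n = 3 pairs). With no filter on low values its 95% interval ran from -1.92 to -0.008 (limma unadjusted p = 0.0482, adjusted p = 0.573), so it was not called. In that fit over 14902 genes 0.637% were called in either direction, 22.7% went one way in all 3 pairs and 10.5% were lower in KO in all of them. None of the 10 genes was called there, with 2 at an unadjusted p under 0.05 (Bhlhe40 and Tfap4), where 8.59% of all genes lay. On the log2(CPM + 1) scale the difference shrank to -0.37. Tfap4 is on chromosome 16 (minus strand, 4544661 to 4559854).

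**Figure D2:**
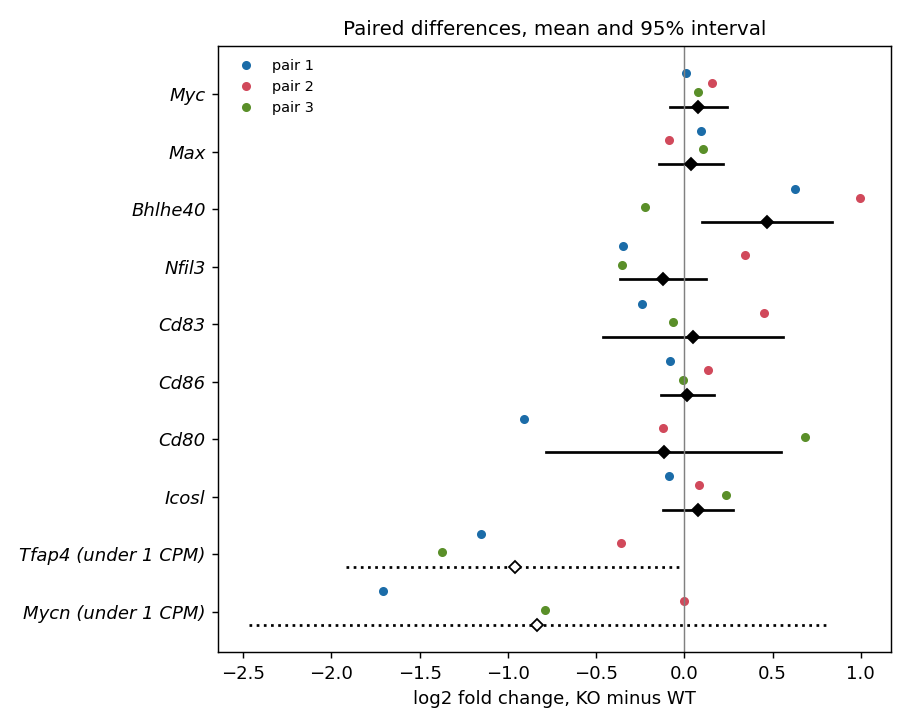
Log2 fold change, KO minus WT (x axis), of the 10 genes. Coloured points are the 3 pairs, diamonds their mean, and lines the 95% interval of the limma fit; open diamonds and dotted lines mark the 2 genes under 1 CPM, fitted with no filter on low values. Bhlhe40 (0.10 to 0.84) and Tfap4 (-1.92 to -0.008) are the genes whose intervals leave out 0, and neither passed after adjustment over all genes.

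Bhlhe40, a repressor of the basic helix-loop-helix family that restrains germinal centre responses in mice, had the largest positive difference of the group, carried by pairs 1 and 2. It was at 3.53, 3.71 and 3.11 log2 CPM in KO libraries 1 to 3, against 2.90, 2.72 and 3.33 in WT libraries 1 to 3. KO library 3 lay below WT library 3, and the groups overlapped. The means were 10.9 CPM in KO and 7.90 CPM in WT libraries. For Bhlhe40 the mean log2 fold change was 0.47 ± 0.62 (SD, n = 3 pairs; limma unadjusted p = 0.0148, adjusted p = 0.366), with a 95% interval from 0.10 to 0.84. Without pair 3 it was 0.81 and past 5% FDR (adjusted p = 0.0337), without pair 1 it was 0.39 (unadjusted p = 0.0575) and without pair 2 it was 0.20 (unadjusted p = 0.293). Over the 10 alternative settings its adjusted p ran from 0.0337 to 1. Its limma unadjusted p was 0.120 with no variance trend and 0.0603 without the replicate block. The SD of Bhlhe40 was larger than that of 97.0% of the 1079 genes within 0.5 log2 units of its level, whose median SD was 0.22. Malat1, a nuclear RNA that served as a sign of RNA quality, was lower in KO in pairs 1 and 2 (-0.38 and -1.25) and higher in pair 3 (0.38). Of the other 2 such RNAs, Kcnq1ot1 had the same signs (-0.50, -1.11 and 0.84). Neat1 was lower in KO in all 3 pairs (-0.87, -0.84 and -0.22). The part of these RNAs in the result was not tested. Bhlhe40 is on chromosome 6 (plus strand, 108660629 to 108666925).

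Nfil3, a repressor that interleukin 4 induces in B cells and that binds D-box sequences, differed more between pairs than between genotypes. It was at 4.46, 4.81 and 4.46 log2 CPM in KO libraries 1 to 3, against 4.81, 4.47 and 4.81 in WT libraries 1 to 3. Thus KO was lower in pairs 1 and 3, by about the amount by which it was higher in pair 2. Nfil3 had a mean paired difference of -0.12 ± 0.40 log2 units (SD, n = 3 pairs; limma adjusted p = 0.856), with a 95% interval from -0.36 to 0.12. Without pair 2 it was -0.35 (limma unadjusted p = 0.0129), without pair 1 -0.005 and without pair 3 -0.003. The SD was larger than that of 96.6% of the 1576 genes within 0.5 log2 units of its level, whose median SD was 0.16. Nfil3 is on chromosome 13 (minus strand, 52967209 to 52981073) and has 2 exons.

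Cd83, whose protein keeps MHC class II and CD86 at the surface, was the most abundant of the 10 and varied strongly between pairs. It was at 9.25, 9.59 and 9.34 log2 CPM in KO libraries 1 to 3, against 9.49, 9.14 and 9.40 in WT libraries 1 to 3. KO library 2 was the highest and WT library 2 the lowest of the 6, while pairs 1 and 3 went the other way. Cd83 had a mean paired difference of 0.05 ± 0.36 log2 units (SD, n = 3 pairs; limma adjusted p = 0.975), with a 95% interval from -0.46 to 0.56. Unlike most genes, Cd83 had fewer prior (1.27) than residual (2) degrees of freedom in that fit. With no filter on low values its interval ran from -0.09 to 0.18. Without pair 1 the difference was 0.19 (limma unadjusted p = 0.0245), and without pair 2 it was -0.15 (unadjusted p = 0.0746). Among the 245 genes within 0.5 log2 units of its level, 98.4% had a smaller SD, and their median SD was 0.09. Cd83 lies on chromosome 13 (plus strand, 43784775 to 43803132).

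Cd86, the main ligand for CD28 in this group by level, was even across all libraries. It was at 7.53, 7.64 and 7.57 log2 CPM in KO libraries 1 to 3, against 7.61, 7.50 and 7.58 in WT libraries 1 to 3. The groups overlapped, and pair 2 again was the pair in which KO was higher. Cd86 had a mean paired difference of 0.02 ± 0.11 log2 units (SD, n = 3 pairs; limma adjusted p = 0.981), with a 95% interval from -0.13 to 0.17 and means of 191 CPM in KO and 189 CPM in WT libraries. Without pair 2 it was -0.04 (adjusted p = 1). Cd86 lies on chromosome 16 (minus strand, 36603869 to 36666081).

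Cd80, the second ligand of CD28 and CTLA-4, which in mice is also a marker of memory B cells, was near 1 CPM and the least precise of the genes tested. It was at 0.004, 0.40 and 0.80 log2 CPM in KO libraries 1 to 3, against 0.91, 0.52 and 0.12 in WT libraries 1 to 3. The paired differences were -0.91, -0.12 and 0.68 for pairs 1 to 3, and the groups overlapped. Its log2 fold change averaged -0.12 ± 0.80 (SD, n = 3 pairs; limma adjusted p = 0.961), its 95% interval ran from -0.78 to 0.55, and without pair 1 it was 0.28 (adjusted p = 0.937). Cd80 lies on chromosome 16 (plus strand, 38455561 to 38496335), and the RefSeq window shown above begins 3′ of that GENCODE start.

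Icosl, the ligand through which B cells engage ICOS on follicular helper T cells, differed little. It was at 5.09, 5.17 and 5.25 log2 CPM in KO libraries 1 to 3, against 5.17, 5.09 and 5.01 in WT libraries 1 to 3. Pair 1 was lower in KO and pairs 2 and 3 were higher, with overlap of the groups. Icosl had a mean paired difference of 0.08 ± 0.16 log2 units (SD, n = 3 pairs; limma adjusted p = 0.896), with a 95% interval from -0.12 to 0.28, and without pair 3 it was -0.003 (adjusted p = 0.995). Icosl is on chromosome 10 (plus strand, 78069302 to 78083913).

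Per kb of the longest annotated transcript, the order of levels was Cd83, Cd86, Myc, Max, Nfil3, Icosl, Bhlhe40, Cd80, Tfap4 and Mycn in WT libraries. In KO libraries only Nfil3 and Icosl changed places. Cd83 had 271 CPM per kb in KO and 262 CPM per kb in WT libraries. Cd86 followed with 75.3 CPM per kb in KO and 74.5 CPM per kb in WT, and Cd80 had 0.416 CPM per kb in KO and 0.451 CPM per kb in WT. Myc had 45.3 CPM per kb in KO and 42.8 CPM per kb in WT, and Max had 25.6 CPM per kb in KO and 25.0 CPM per kb in WT. The ranges over the 6 libraries overlapped between Nfil3 and Icosl and between Cd80 and Tfap4, and the other neighbours in the order lay apart.

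**Figure D3:**
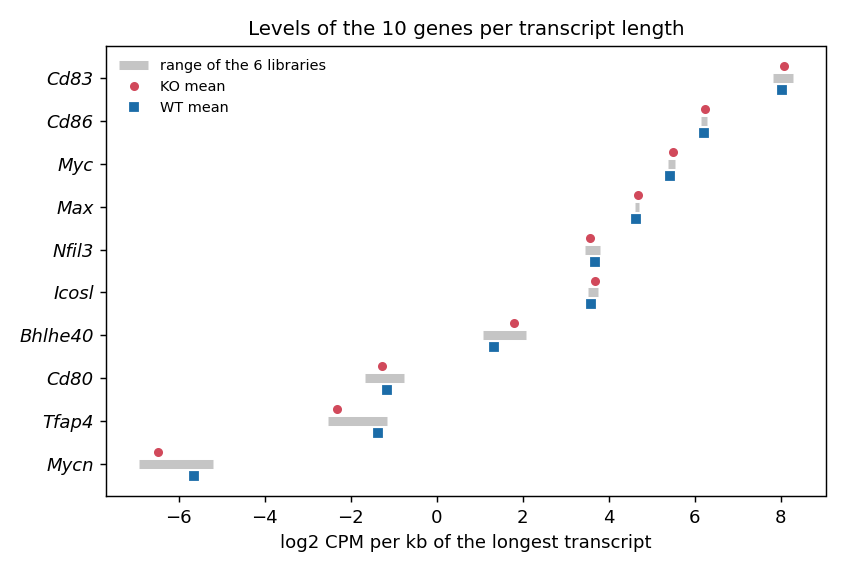
Level of the 10 genes as log2 CPM per kb of the longest GENCODE M21 transcript (x axis). Circles are KO means, squares WT means (n = 3 each) and grey bars the range of the 6 libraries; Cd83 lies highest (8.08 in KO, 8.04 in WT) and Mycn lowest (-6.48 in KO, -5.65 in WT).

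Replicate pair 2 had the largest median difference among the 8 genes tested. KO library 2 was the highest of the 6 libraries for 4 of the 10 genes, Myc, Cd83, Cd86 and Bhlhe40. WT library 2 was then the lowest, as the equal totals require. KO library 3, WT library 1 and WT library 3 were each the highest for 2 genes, so this count does not set pair 2 apart from pair 3. The median difference of the 8 genes tested was -0.08 in pair 1, 0.15 in pair 2 and 0.03 in pair 3, beside 0.003, 0.01 and 0.004 over all genes tested. Without pair 2 the median of the 8 was -0.0003. Some other lists moved with that pair and some did not. CD40 and NF-kB response genes had a pair 2 median of 0.37, other light zone genes of 0.225 and T cell contact genes of 0.15. E proteins and inhibitors of DNA binding had one of -0.17. The pair 2 median was -0.01 for MYC network partners, 0.06 for MYC targets, -0.005 for E-box and D-box factors and -0.02 for dark zone genes. The 7 naive and follicular B cell markers tested had medians of -0.14, 0.60 and -0.22 in pairs 1 to 3, and the 3 nuclear RNAs had medians of -0.50, -1.11 and 0.38. Their part in the pattern was not tested.

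The genes most like Myc over the 3 paired differences, among 7919 others with a mean of at least 8 CPM, were Ier5, Capza1 and Hbp1, at Euclidean distances of 0.008, 0.01 and 0.02 log2 units. For Cd80, which had the largest SD among the 8 genes tested, they were Zfyve1, Erc1 and Plec, at distances of 0.32, 0.45 and 0.49 among 7920. With 3 numbers per gene such likeness is a description only.

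The wider MYC network was looked at through partners, antagonists and regulators of MYC and MAX. Of 14 listed genes 13 were tested, and none rose or fell at 5% FDR by limma. At an unadjusted p under 0.05 there was 1 of these 13, beside 8.82% of all genes tested. Their median log2 fold change was 0.03, with 8 of 13 positive. The gene with the smallest p was Mxd1, a MAX partner that opposes MYC. It was at 3.02, 2.97 and 2.91 log2 CPM in KO libraries 1 to 3, against 2.42, 2.47 and 2.52 in WT libraries 1 to 3, and the groups did not overlap. In the list 1 of 13 genes was higher in KO in all 3 pairs, beside 15.2% of all genes tested. The log2 fold change of Mxd1 was 0.49 ± 0.10 (SD, n = 3 pairs; limma adjusted p = 0.304). Without the replicate block, a fit that counts degrees of freedom already used, Mxd1 passed (adjusted p = 0.0352). Fbxw7, which marks MYC protein for degradation, differed by -0.17 ± 0.19 (adjusted p = 0.665), and Mxd3 by -0.12 ± 0.11 (adjusted p = 0.793).

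Textbook targets of MYC in growth and nucleotide synthesis gave no call either. None of 22 genes passed 5% FDR by limma. The median was 0.03 and 15 of 22 were positive, beside 51.3% of all genes tested. At an unadjusted p under 0.05 there were 3 (Ncl, Cad and Polr1b), beside 8.82% of all genes tested. These 3 did not go one way. Cad, the enzyme that starts pyrimidine synthesis, differed by 0.25 ± 0.12, with 97.7 CPM in KO and 82.4 CPM in WT libraries (limma adjusted p = 0.256). Polr1b, a subunit of RNA polymerase I, differed by 0.26 ± 0.14 (adjusted p = 0.331). Ncl, which encodes the nucleolar protein nucleolin, differed by -0.20 ± 0.20, with 748 CPM in KO and 859 CPM in WT libraries (adjusted p = 0.236). Ccnd2, a cyclin of entry into the cell cycle that was singled out after its values were seen, had the pair pattern of Bhlhe40: its differences were 0.56, 1.16 and -0.13. It had an adjusted p of 0.696, and passed without pair 3 (0.86, adjusted p = 0.00536) and when low values were not filtered (adjusted p = 0.0143).

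Other molecules of contact with T cells included CD40, ligands of the TNF and B7 families, adhesion molecules and cytokine receptors. Of 18 listed genes 16 were tested and none rose or fell at 5% FDR by limma. At an unadjusted p under 0.05 there was 1, beside 8.82% of all genes tested. The median was 0.05 and 12 of 16 were positive, beside 51.3% of all genes tested. Tnfsf9, the ligand of the costimulatory receptor 4-1BB, was at 16.8 CPM in KO and 13.2 CPM in WT libraries. It differed by 0.35 ± 0.49 (limma adjusted p = 0.411), with paired differences of 0.75, 0.51 and -0.20, and passed without pair 3 (0.63, adjusted p = 0.0473). Without pair 1 the Tnfsf9 difference was 0.16 (limma unadjusted p = 0.369), and without pair 2 it was 0.27 (unadjusted p = 0.0949). Icam1, the adhesion ligand of LFA-1, differed by 0.14 ± 0.08 (adjusted p = 0.617), and Il2rg, the shared receptor chain for interleukins 4 and 21, by 0.17 ± 0.31 (adjusted p = 0.678).

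Genes that CD40 and NF-kB induce were tested in full, all 14 of them, and none passed 5% FDR by limma. At an unadjusted p under 0.05 there were 4, beside 8.82% of all genes tested. The median of the 14 was 0.12, with pair medians of 0.002, 0.37 and 0.04. Of the 14, 11 were positive and 6 were higher in KO in all 3 pairs, beside 51.3% and 15.2% of all genes tested. Irf4, a regulator of both selection and plasma cell fate, had the smallest p. It was at 15.8 CPM in KO and 10.9 CPM in WT libraries, a log2 fold change of 0.54 ± 0.26 (limma adjusted p = 0.0636). It passed without pair 3 (0.69, adjusted p = 0.0349) and when low values were not filtered (adjusted p = 0.0398). Without pair 1 the Irf4 difference was 0.46 (adjusted p = 0.294), and without pair 2 it was 0.47 (adjusted p = 0.638). Relb differed by 0.22 ± 0.17 (adjusted p = 0.392) and Nfkb2 by 0.19 ± 0.16 (adjusted p = 0.439).

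Among 14 further light zone genes 11 were tested and 1 rose at 5% FDR by limma, where 0.168% of all genes tested were called higher in KO. The gene was Egr2, an early response factor of antigen receptor signalling. It was at 4.15, 4.20 and 4.06 log2 CPM in KO libraries 1 to 3, against 3.44, 3.39 and 3.53 in WT libraries 1 to 3, without overlap. Of all genes tested, 15.2% were higher in KO in all 3 pairs. The log2 fold change of Egr2 was 0.68 ± 0.14 (SD, n = 3 pairs; limma adjusted p = 0.00366). The call was lost without pair 2 (0.61, adjusted p = 0.116) and with no variance trend over expression level (adjusted p = 0.541). The median of the 11 was 0.06, with 7 positive. Cd52, a surface glycoprotein of lymphocytes, differed by 0.12 ± 0.11 (adjusted p = 0.555), and Pou2af1, a coactivator that germinal centres require, by -0.11 ± 0.08 (adjusted p = 0.630).

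**Figure D4:**
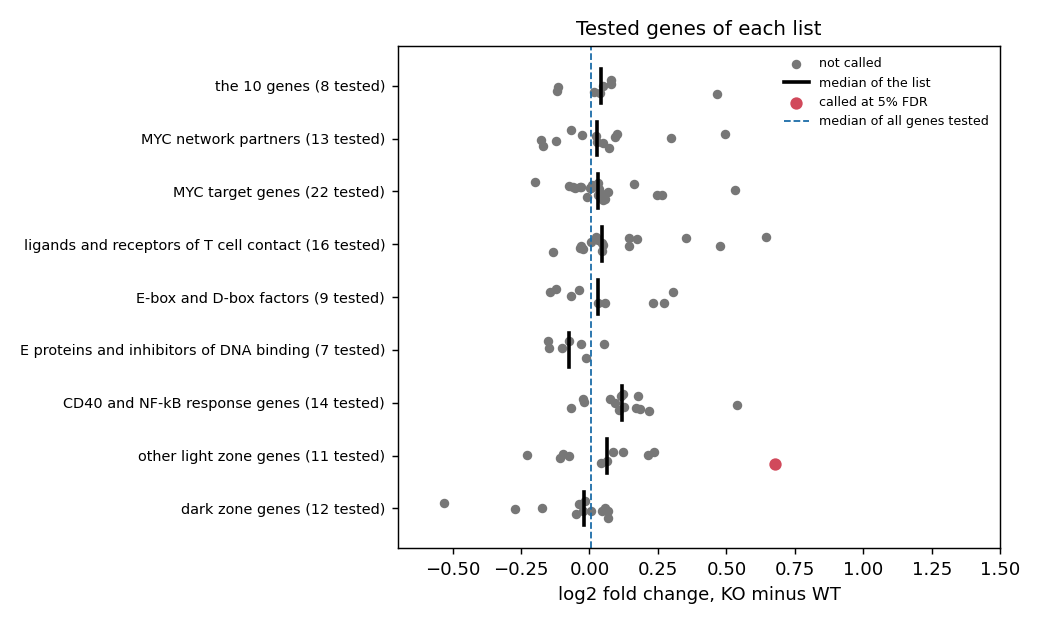
Log2 fold change, KO minus WT (x axis), of the tested genes of each list. Points are genes, black bars list medians, and the dashed line the median of all 10133 genes tested (0.004); Egr2 among the other light zone genes (0.68) is the one called gene.

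The defining markers of B cells and of germinal centre B cells were at high levels in all 6 libraries. The 5 pan-B cell markers summed to between 7371 and 7645 CPM in KO and between 7878 and 8170 CPM in WT libraries, without overlap. All 5 were negative, and 2 of them were lower in KO in all 3 pairs, beside 12.5% of all genes tested. None was called at 5% FDR by limma, and 1, Cd79b, had an unadjusted p under 0.05 (-0.14 ± 0.06, adjusted p = 0.369). The 8 germinal centre B cell markers summed to between 4198 and 4351 CPM in KO and between 4339 and 4496 CPM in WT libraries. Of these 8, 6 were negative, without a call at 5% FDR by limma. At an unadjusted p under 0.05 there were 3, beside 8.82% of all genes tested. These 3 were lower in KO in all 3 pairs, as were 12.5% of all genes tested: Nuggc (-0.23 ± 0.11, limma adjusted p = 0.200), Fas (-0.20 ± 0.02, adjusted p = 0.324) and Gcsam (-0.16 ± 0.13, adjusted p = 0.364). Of the naive and follicular B cell markers 7 were tested, 6 of them were positive and none was called at 5% FDR by limma, with 1 at an unadjusted p under 0.05. It was Cd38, higher in KO in all 3 pairs, as were 15.2% of all genes tested (0.44 ± 0.35, unadjusted p = 0.00135, adjusted p = 0.168). Their sum lay between 340 and 433 CPM in KO and between 317 and 402 CPM in WT libraries. Cd80 and Cd86 are also genes of myeloid and dendritic cells, of whose 10 markers 8 had a mean under 1 CPM. The sum of the 10 lay between 89.0 and 97.4 CPM in KO and between 100.05 and 109 CPM in WT libraries, most of it Flt3 (91.0 CPM in KO, 98.9 CPM in WT). Of 8 T cell markers, 7 had a mean under 1 CPM and Cd3e was at -5.063 log2 CPM, the floor, in all 6 libraries. Their sum, between 222 and 236 CPM in KO and between 190 and 203 CPM in WT libraries, was mostly Lck (228 CPM in KO, 194 CPM in WT; log2 fold change 0.23 ± 0.10, limma adjusted p = 0.212). The 7 erythroid and platelet markers all had a mean under 1 CPM, and their sum lay between 1.68 and 2.86 CPM in KO and between 1.12 and 2.30 CPM in WT libraries. The 5 plasma cell markers summed to between 1956 and 2142 CPM in KO and between 2093 and 2305 CPM in WT libraries, most of it Igj, the antibody joining chain (1656 CPM in KO, 1850 CPM in WT; log2 fold change -0.16 ± 0.20, limma unadjusted p = 0.0107, adjusted p = 0.331). The other 4 were positive. Prdm1, the plasma cell regulator, differed by 0.93 ± 0.56 and was higher in KO in all 3 pairs, beside 15.2% of all genes tested (limma unadjusted p = 0.00402, adjusted p = 0.256). Sdc1 (0.53 ± 0.19) and Tnfrsf17 (0.43 ± 0.74), both under 1 CPM, were not tested, and Xbp1 differed by 0.05 ± 0.15 (limma adjusted p = 0.895).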

How the data were processed

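The submitters' processing notes name STAR 2.6.1a, Subread 2.0.1, featureCounts, limma, Trim Galore 0.6.5, FastQC 0.11.7 and the build mm10, with no settings or strand mode. From their linear sums, the deposited values are log2 CPM, and near the floor the most common nonzero paired difference was 1.58, which is the log2 of 3. Depth per library is unknown. Samples were grouped by their titles. The values add up to equal totals over replicate numbers, so KO and WT libraries have equal SDs by construction, a correlation of same-numbered libraries is fixed and cannot show pairing, and the labels do not say what a number stands for. The comparison of KO with WT therefore used limma 3.58.1 (R 4.3.3) with genotype and replicate number, a variance trend and robust moderation (2 residual and a median of 81.2 prior degrees of freedom), two-sided, at 5% FDR. The smallest two-sided p of an exact sign-flip test is 0.25 with 3 pairs. The p-values and intervals rest on these libraries only. For most genes the prior degrees of freedom exceed the 2 residual ones. The variance used is then mostly the trend over genes of like level, not the spread of that gene.

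The lists and their genes, the settings and the rule for named genes were chosen with earlier results of these data known. The 10 genes themselves were given by symbol. The rule named the 10 genes, Basp1, the 3 genes with the smallest p in each list other than marker lists, any called gene of those lists, and the 3 nearest genes by paired differences to Myc and to the gene of largest SD. The lists were MYC network partners, MYC targets, T cell contact, E-box and D-box factors, E proteins and inhibitors of DNA binding, CD40 and NF-kB response, other light zone genes, dark zone genes and marker lists. Marker genes given by name were chosen after their values were seen. Alternatives changed the block, filter, pseudocount, variance trend, moderation, scaling or left out 1 pair. Gene coordinates are from GENCODE M21.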

Additional observations from a re-analysis of the deposited data

How the results depend on the processing

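Of the 10 genes none was called under 9 of the 10 alternatives, and without replicate 3 Bhlhe40 was (range of 0 to 1 over the replicates left out). The fold changes of the genes tested kept their sign in these alternatives except 4 when a replicate was left out: Cd83 (range -0.15 to 0.19), Cd86 (-0.043 to 0.064), Cd80 (-0.52 to 0.28) and Icosl (-0.003 to 0.16). Among the other named genes Cry1 changed sign (-0.029 to 0.42). Over all genes the main test called 27, 17 higher and 10 lower in KO. The fit without the replicate block called 142 (99 higher, 43 lower), the fit with no filter on low values 95 (42 higher, 53 lower), non-robust moderation 12 (7 higher, 5 lower) and the fit with no variance trend 0, with 640 at an unadjusted p under 0.05. With 1 replicate left out the count ran from 11 to 136 (4 to 28 higher, 7 to 109 lower), the lowest without replicate 2 and the highest without replicate 1. With no variance trend Basp1 kept its log2 fold change of -2.51 at an adjusted p of 0.150. No paired reading of the block is possible, since the deposited totals fix it.

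Calls in the lists changed too. The block removed, MYC network partners had 1 call (Mxd1). With no filter, MYC targets had 1 (Ccnd2) and CD40 and NF-kB response genes 1 (Irf4), and the myeloid marker S100a8, under 1 CPM, was called (-3.05, adjusted p = 0.0186). With non-robust moderation, dark zone genes had 1 (Mki67). With no variance trend, other light zone genes had 0. With 1 replicate left out, the calls ran from 0 to 2 for MYC targets and from 0 to 1 for T cell contact, CD40 and NF-kB response, other light zone and dark zone genes. The causes of these changes were not tested. The precision is limited by 3 pairs, and by low level for Cd80, Tfap4 and Mycn.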

Other observations

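Factors that share DNA sequences with the group gave no call. Of 12 E-box and D-box factors related to Bhlhe40 and Nfil3, most of them known from the circadian clock, 9 were tested and none passed 5% FDR by limma, with 0 at an unadjusted p under 0.05 and a median log2 fold change of 0.03. Clock differed by 0.27 ± 0.20 (limma adjusted p = 0.689), Cry1 by 0.23 ± 0.47 (adjusted p = 0.721; -0.03 without pair 2) and Dbp by 0.30 ± 0.12, with 4.88 CPM in KO and 3.95 CPM in WT libraries (adjusted p = 0.756). Of 8 E proteins, USF factors and inhibitors of DNA binding 7 were tested, again without a call at 5% FDR by limma and with 1 at an unadjusted p under 0.05. Their median was -0.07 and 6 of the 7 were negative. Tcf3, which encodes the E proteins E12 and E47, was at 465 CPM in KO and 516 CPM in WT libraries, a difference of -0.15 ± 0.18 (adjusted p = 0.473). Usf1 differed by -0.15 ± 0.06 (adjusted p = 0.672) and Id3 by -0.10 ± 0.13 (adjusted p = 0.771).

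The 12 dark zone genes, of the cells to which selected B cells return, had a median of -0.02 with 5 positive and 7 negative. None fell at 5% FDR by limma, and 2 had an unadjusted p under 0.05, beside 8.82% of all genes tested. Foxo1, a factor that the dark zone requires, differed by -0.27 ± 0.33 (limma adjusted p = 0.371) and passed without pair 1 (-0.41, adjusted p = 0.00376). Without pair 2 the Foxo1 difference was -0.32 (adjusted p = 0.488), and without pair 3 it was -0.09 (adjusted p = 0.715). Hmmr differed by -0.17 ± 0.19 (adjusted p = 0.513). Mki67, a marker of cycling cells, had 197 CPM in KO and 285 CPM in WT libraries, a difference of -0.53 ± 0.48 (adjusted p = 0.763). Non-robust moderation called it (adjusted p = 0.0427). Other cell division genes of the list differed by less and in both directions: Plk1 by 0.07, Aurka by 0.07, Ccnb1 by 0.06, Bub1 by 0.04, Cdc20 by -0.04 and Ccnb2 by -0.02.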
